A study of Rattus norvegicus with 30 samples.

Results

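Tip-cell surface and matrix genes were followed in CD31-positive lung cells of rats after Glenn or sham surgery. They are 8 genes chosen by gene name, namely Esm1, Kcne3, Plaur, Cd34, Mcam, Nid1, Nid2 and Sparc, out of 30562 genes in the count table. All 8 had enough counts to be among the 16171 genes tested. RNA was sequenced from cells that had been captured with microbeads by CD31, an adhesion protein on the surface of endothelium, 3 weeks after the operation. The Glenn operation connects the superior vena cava with the pulmonary artery, and the lung is then perfused by venous blood that has not come from the liver. All animals were wild-type rats, and their ages were not among the labels used here.

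There were 6 groups of 5 libraries. Sham-operated rats were fed a control diet, a vitamin A-deficient diet or a vitamin A-excess diet, and Glenn-operated rats were fed the same 3 diets. Every group, controls included, had an operation, and the control diet is the reference for both modified diets. The labels do not say whether the 5 libraries of a group came from separate animals, so p-values measure the spread between these libraries. The questions that the design poses are how the operation alters lung endothelial RNA and whether dietary vitamin A alters that response.

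A sprouting vessel is led by an endothelial tip cell, which extends filopodia towards vascular endothelial growth factor (VEGF), loosens the old basement membrane and lays down new one, while stalk cells behind it form the lumen. Tip cells are recognised by secreted and surface proteins such as endocan (Esm1), the potassium channel subunit Kcne3, the urokinase receptor (Plaur) and the sialomucin Cd34, and by matrix proteins such as the nidogens. Several of these proteins are also made elsewhere: Mcam and the matrix genes are expressed by pericytes, smooth muscle cells or fibroblasts, and Cd34 by some fibroblasts and progenitor cells. In bulk samples, a larger share of cells of one kind and more RNA per cell cannot be told apart.

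The stretch of 250 bases before the start site was read for 6 of the 8 genes from RefSeq's GRCr8 promoters, and Nid2 and Mcam were not matched. The 4 printed here are those of Esm1 and Cd34, the members with the largest rises, and of Plaur and Sparc, which held 2 matches each to AGGAAG. Each is written 5′ to 3′ on the gene's strand in lower case, with the matches in capitals. The motifs were AGGAAG for ETS factors, TGANTCA for AP-1, GGCGCC for BMP signalling, ACGTG for hypoxia-inducible factors, TATAAA for the TATA box and AGGTCA for retinoid receptors, each searched on both strands (CTTCCT and CACGT are reverse-strand matches).
Esm1: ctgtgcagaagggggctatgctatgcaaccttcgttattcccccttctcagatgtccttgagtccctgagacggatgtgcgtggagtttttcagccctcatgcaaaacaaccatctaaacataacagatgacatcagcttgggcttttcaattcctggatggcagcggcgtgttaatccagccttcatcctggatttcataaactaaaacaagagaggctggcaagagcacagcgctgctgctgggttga
Cd34: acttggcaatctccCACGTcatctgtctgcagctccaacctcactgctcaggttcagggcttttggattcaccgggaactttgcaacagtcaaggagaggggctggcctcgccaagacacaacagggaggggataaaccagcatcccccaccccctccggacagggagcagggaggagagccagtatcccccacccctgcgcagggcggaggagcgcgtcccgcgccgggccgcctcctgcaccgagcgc
Plaur: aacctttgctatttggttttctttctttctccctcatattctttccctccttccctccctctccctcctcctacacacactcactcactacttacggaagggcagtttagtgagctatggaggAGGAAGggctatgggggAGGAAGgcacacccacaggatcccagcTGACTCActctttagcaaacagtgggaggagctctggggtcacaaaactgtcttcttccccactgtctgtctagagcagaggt
Sparc: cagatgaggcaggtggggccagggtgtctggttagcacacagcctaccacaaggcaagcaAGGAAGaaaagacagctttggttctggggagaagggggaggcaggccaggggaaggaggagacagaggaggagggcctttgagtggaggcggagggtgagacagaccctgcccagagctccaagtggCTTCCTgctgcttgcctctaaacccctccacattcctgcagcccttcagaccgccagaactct

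The Esm1 stretch lies at chr2:46609003-46609252 on the plus strand and held none of the 6 motifs. That of Cd34 lies at chr13:109008536-109008785 on the plus strand, with ACGTG at -236, counting the base before the start site as -1. That of Plaur lies at chr1:89181113-89181362 on the plus strand, with AGGAAG at -127 and -110 and TGANTCA at -83. That of Sparc lies at chr10:40038817-40039066 on the minus strand, with AGGAAG at -190 and -63. AGGAAG was found in 4 of the 6 members (Kcne3, Plaur, Nid1 and Sparc) and in 29.5% of 33469 rat promoters of the same length. The TGANTCA match of Plaur, the GGCGCC match of Kcne3 and the ACGTG match of Cd34 stand beside shares of 6.34%, 8.69% and 16.6% of all promoters. TATAAA and AGGTCA were found in 0 of 6 members and in 12.9% and 14.1% of all promoters. A match describes letters and is not a binding site, and its absence says only that these letters are not in this window. The sequences are from GRCr8 and the counts were made on mRatBN7.2, so no position of the count table is given.

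Library totals ranged from 22 to 77.6 M estimated counts (M, mega), with a median of 40 M, and the lowest count of any member in any library was 108, for Cd34. Levels are given as CPM, counts per 1 M counts of the library after TMM scaling, which does not correct for gene length, so levels of different genes are not compared. Library names fall into 2 number ranges, called series A (22 libraries) and series B (8), and series A alone makes up the sham and Glenn groups on the control diet and sham excess. The major histocompatibility gene RT1-CE16 was above 100 CPM in 13 libraries and below it in 17. The split was uneven: all series B libraries were high, all sham excess libraries were low, and Glenn excess held both. Endothelial marker genes were present throughout, with Cdh5 at 1557 to 2926 CPM and Pecam1 at 863 to 1731 CPM. Epithelial RNA was present throughout as well, with the surfactant gene Sftpc at 15060 to 36190 CPM. Among the members, 4 libraries stood apart from the others of their group: Glenn control replicate 1 (Nid1, Cd34 and Sparc), Glenn excess replicate 1 (Nid1), Glenn deficient replicate 1 (Nid2) and sham control replicate 5 (Nid2). Glenn control replicate 1 also had the fewest genes with a count, 16717. Results that change without such a library are given with and without it.

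After Glenn surgery 7 of the 8 genes were higher, all except Mcam, both averaged over diets and on each diet (edgeR quasi-likelihood test, Benjamini-Hochberg adjusted p under 0.05 over all genes tested). Of all genes tested, 23.4% were called higher averaged over diets, 11.8% on the control diet, 13.7% on the deficient diet and 11.6% on the excess diet. The median log2 change of the 8 genes was 0.99, beside -0.01 over all genes tested. The 8 genes were chosen with earlier results of these data known, so their counts and median may partly reflect that choice. The rise was steepest for endocan, at 4.85-fold, followed by Cd34 (3.76-fold), Nid2 (3.05-fold) and Nid1 (2.19-fold). For 4 genes, Esm1, Cd34, Nid1 and Nid2, every one of the 15 Glenn libraries was above every one of the 15 sham libraries, which held for 3.1% of all genes. On single diets the 7 genes did not overlap between the surgeries, apart from Kcne3 on the deficient diet. Such a separation upwards was seen for 7.78% of all genes on the control diet, 10% on the deficient diet and 8.59% on the excess diet.

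**Figure D1:**
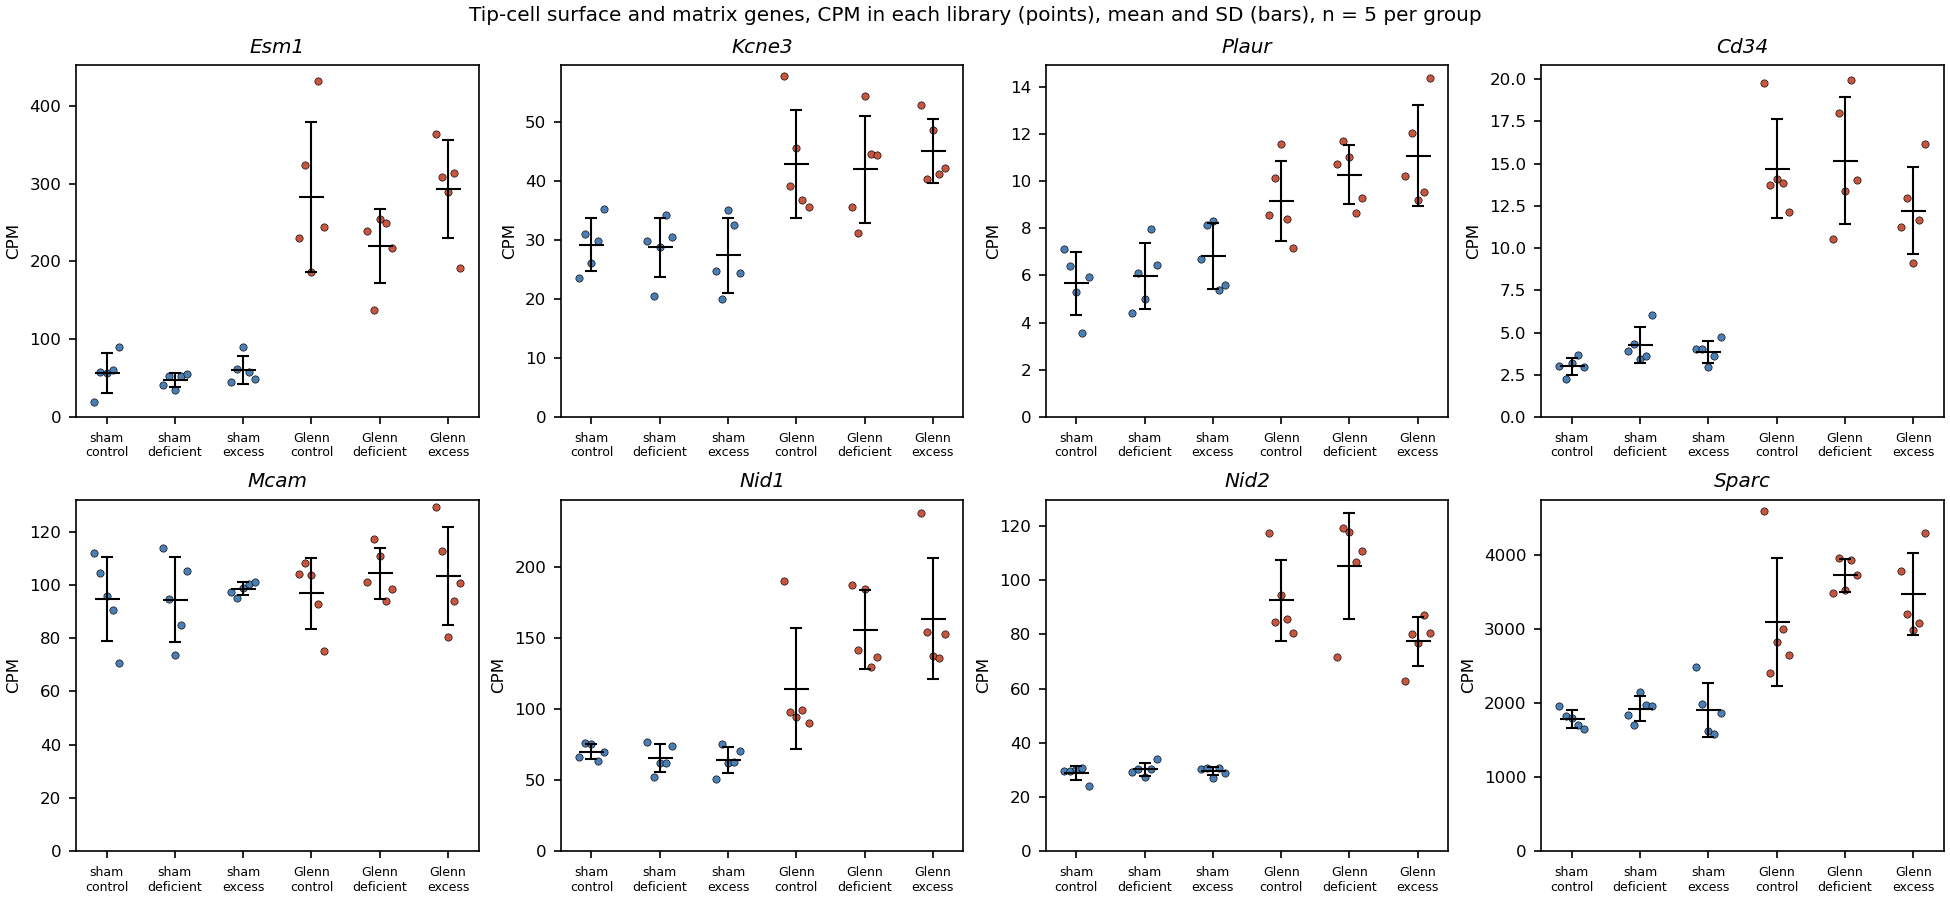
CPM of each gene in each library (points; blue, sham; red, Glenn) in the 6 groups of 5, with mean and SD as bars; each panel has its own linear axis from 0. All Glenn points of Esm1, Cd34, Nid1 and Nid2 lie above all sham points, whereas those of Mcam lie in the same range, from 70.7 to 129 CPM over all libraries.

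Esm1 (ENSRNOG00000010797) encodes endocan, a secreted proteoglycan that endothelial cells release in response to VEGF. On the control diet its level was 18.8, 57.4, 56.7, 60.4 and 90.4 CPM in sham replicates 1 to 5 and 230.1, 324, 187, 432 and 245 CPM in Glenn replicates 1 to 5. On the deficient diet the sham libraries had 41.7, 53.1, 34.1, 52.4 and 55.3 CPM and the Glenn libraries 239, 138, 255, 249.6 and 218 CPM. On the excess diet the sham libraries had 44.6, 61.6, 90.5, 57.4 and 48.8 CPM and the Glenn libraries 364, 308, 289.6, 313 and 192 CPM. The lowest Glenn library, at 138 CPM, was above the highest sham library, at 90.5 CPM. The mean rose from 54.9 ± 18.3 to 266 ± 74.8 CPM (SD, n = 15 per surgery). This is 2.28 on the log2 scale (SE 0.17, 95% interval 1.92 to 2.64, edgeR adjusted p 3.32e-11). The log2 changes on the control, deficient and excess diet were 2.32, 2.20 and 2.31, closer to each other than their standard errors of 0.30 to 0.32. Esm1 also varied most among libraries of one group, with a coefficient of variation of 19.2% to 44.8%.

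Cd34 (ENSRNOG00000045558) encodes a sialomucin on the filopodia of tip cells and on small-vessel endothelium. Sham libraries had 3.03, 2.24, 3.17, 3.64 and 2.94 CPM on the control diet, 3.90, 4.31, 3.42, 3.61 and 6.03 CPM on the deficient diet and 4.03, 4.03, 2.94, 3.59 and 4.74 CPM on the excess diet. Glenn libraries had 19.8, 13.7, 14.1, 13.8 and 12.1 CPM on the control diet, 10.6, 18.02, 13.4, 19.9 and 14.0 CPM on the deficient diet and 11.2, 12.97, 9.09, 11.7 and 16.1 CPM on the excess diet. The surgeries did not overlap, and the nearest pair was a sham deficient library at 6.03 CPM and a Glenn excess library at 9.09 CPM. Averaged over diets the log2 change was 1.91 (SE 0.11, edgeR adjusted p 1.27e-14). It was 2.29 on the control diet, 1.86 on the deficient diet and 1.58 on the excess diet. That order was not a called difference, since the test of surgery by diet gave Cd34 an unadjusted p of 0.0442 and an edgeR adjusted p of 0.87.

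Plaur (ENSRNOG00000037931) encodes the membrane-anchored receptor that holds urokinase at the cell surface and so focuses plasmin formation there. Sham libraries had 7.12, 6.40, 5.32, 3.57 and 5.93 CPM on the control diet, 4.39, 6.09, 4.99, 7.96 and 6.45 CPM on the deficient diet and 6.71, 8.15, 8.31, 5.37 and 5.59 CPM on the excess diet. Glenn libraries had 8.57, 10.1, 11.6, 8.403 and 7.17 CPM on the control diet, 10.7, 11.7, 11.02, 8.65 and 9.29 CPM on the deficient diet and 10.2, 12.03, 9.21, 9.53 and 14.4 CPM on the excess diet. Within each diet the surgeries were separate, and over all diets only Glenn control replicate 5, at 7.17 CPM, lay within the sham range. The log2 change averaged over diets was 0.73 (SE 0.11, edgeR adjusted p 1.70e-06). Plaur on the excess diet was near the threshold (0.70, SE 0.20, edgeR adjusted p 0.0119) and passed out of it without Glenn excess replicate 2 (0.65, adjusted p 0.0518).

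Kcne3 (ENSRNOG00000017054) encodes a single-pass subunit that changes the gating of voltage-gated potassium channels. Sham libraries had 23.6, 31.1, 26.1, 29.8 and 35.2 CPM on the control diet, 29.8, 20.5, 28.7, 34.1 and 30.5 CPM on the deficient diet and 24.7, 19.95, 35.1, 32.6 and 24.4 CPM on the excess diet. Glenn libraries had 57.7, 39.1, 45.5, 36.7 and 35.5 CPM on the control diet, 35.5, 31.1, 54.4, 44.6 and 44.3 CPM on the deficient diet and 52.8, 40.3, 48.6, 41.1 and 42.2 CPM on the excess diet. Of the Glenn libraries 14 of 15 were above all sham libraries, and the exception was Glenn deficient replicate 2, at 31.1 CPM. The log2 change of 0.59 (SE 0.10, edgeR adjusted p 8.23e-06) was the smallest of the 7 called. On single diets the log2 change stayed positive with any library left out, but its call was lost without certain single libraries. Without Glenn control replicate 1 it was 0.43 on the control diet (adjusted p 0.0585), without sham deficient replicate 2 it was 0.46 on the deficient diet (adjusted p 0.0544), and without Glenn excess replicate 1 it was 0.50 on the excess diet (adjusted p 0.0732), all by edgeR.

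Mcam (ENSRNOG00000007726) encodes CD146, an adhesion molecule of endothelial cells, pericytes and smooth muscle that binds laminin. Its mean was 96.0 ± 12.2 CPM in sham libraries and 102 ± 13.6 CPM in Glenn libraries (SD, n = 15 each), and the surgeries overlapped on every diet. The lowest, median and highest library were 70.7, 97.5 and 114 CPM in sham and 75.4, 101 and 129 CPM in Glenn libraries. Its log2 change was 0.12 (SE 0.06, 95% interval -0.01 to 0.24, edgeR adjusted p 0.131), so a rise above about 0.24 on the log2 scale lies outside the interval. Leaving out 1 library could bring Mcam past the threshold, at 0.14 without Glenn control replicate 5 (adjusted p 0.0486) or 0.15 without sham deficient replicate 5 (adjusted p 0.0472). Mcam had the least spread among libraries of one group, with a coefficient of variation of 2.51% in the sham excess group, and up to 17.9% in the Glenn excess group.

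Nid1 (ENSRNOG00000002461) encodes nidogen 1, which links the laminin network of the basement membrane to collagen IV. After sham surgery the libraries had 66.1, 76.0, 75.5, 63.7 and 69.7 CPM on the control diet, 76.8, 52.4, 62.0, 62.1 and 74.3 CPM on the deficient diet and 50.9, 75.3, 62.0, 62.6 and 70.3 CPM on the excess diet. After Glenn surgery they had 190.3, 97.8, 94.4, 99.7 and 90.0 CPM on the control diet, 188, 141, 185, 129.7 and 136 CPM on the deficient diet and 238, 154, 137, 136 and 153 CPM on the excess diet. All Glenn libraries were above all sham libraries, and on the control diet 4 of the 5 Glenn libraries lay below every Glenn library of the other diets. The log2 change averaged over diets was 1.13 (SE 0.10, edgeR adjusted p 2.43e-10). On the control diet it was 0.70 (SE 0.17, edgeR adjusted p 0.00247), and 0.44 (adjusted p 0.0122) without Glenn control replicate 1. It was 1.18 on the deficient diet and 1.50 on the excess diet (SE 0.17 and 0.19).

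Nid2 (ENSRNOG00000000341) encodes nidogen 2, the second of these linkers, which is enriched in endothelial basement membranes. After sham surgery the libraries had 29.7, 29.4, 30.2, 30.6 and 24.2 CPM on the control diet, 29.4, 30.3, 27.3, 30.5 and 33.9 CPM on the deficient diet and 30.3, 30.7, 27.1, 30.6 and 28.9 CPM on the excess diet. After Glenn surgery they had 118, 84.5, 94.7, 85.7 and 80.6 CPM on the control diet, 71.7, 119, 118, 107 and 111 CPM on the deficient diet and 62.6, 80.2, 76.9, 87.1 and 80.6 CPM on the excess diet. The sham values were tight, and the lowest Glenn library, at 62.6 CPM, was above the highest sham library, at 33.9 CPM. Nid2 had the smallest adjusted p of the 8 genes, its log2 change being 1.61 (SE 0.07, edgeR adjusted p 8.00e-18), and ranked 23 by p among the 16171 genes. The changes on the control, deficient and excess diet were 1.68, 1.82 and 1.33 (SE 0.11, 0.11 and 0.12).

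Sparc (ENSRNOG00000012840) encodes osteonectin, a secreted protein that binds collagens and loosens cell contacts with the matrix. Sham libraries had 1960.1, 1829, 1805, 1702 and 1646 CPM on the control diet, 1846, 1706, 2147, 1973 and 1965 CPM on the deficient diet and 2484, 1986, 1627, 1583 and 1863 CPM on the excess diet. Glenn libraries had 4599, 2408, 2828, 3006 and 2656 CPM on the control diet, 3487, 3963, 3526, 3931 and 3728 CPM on the deficient diet and 3789, 3210.2, 2983, 3082 and 4293 CPM on the excess diet. Within each diet the surgeries were separate. Over all diets only Glenn control replicate 2, at 2408 CPM, fell below a sham library, sham excess replicate 1 at 2484 CPM. The log2 change averaged over diets was 0.86 (SE 0.08, edgeR adjusted p 3.56e-10). The changes on the control, deficient and excess diet were 0.79, 0.97 and 0.82.

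**Figure D2:**
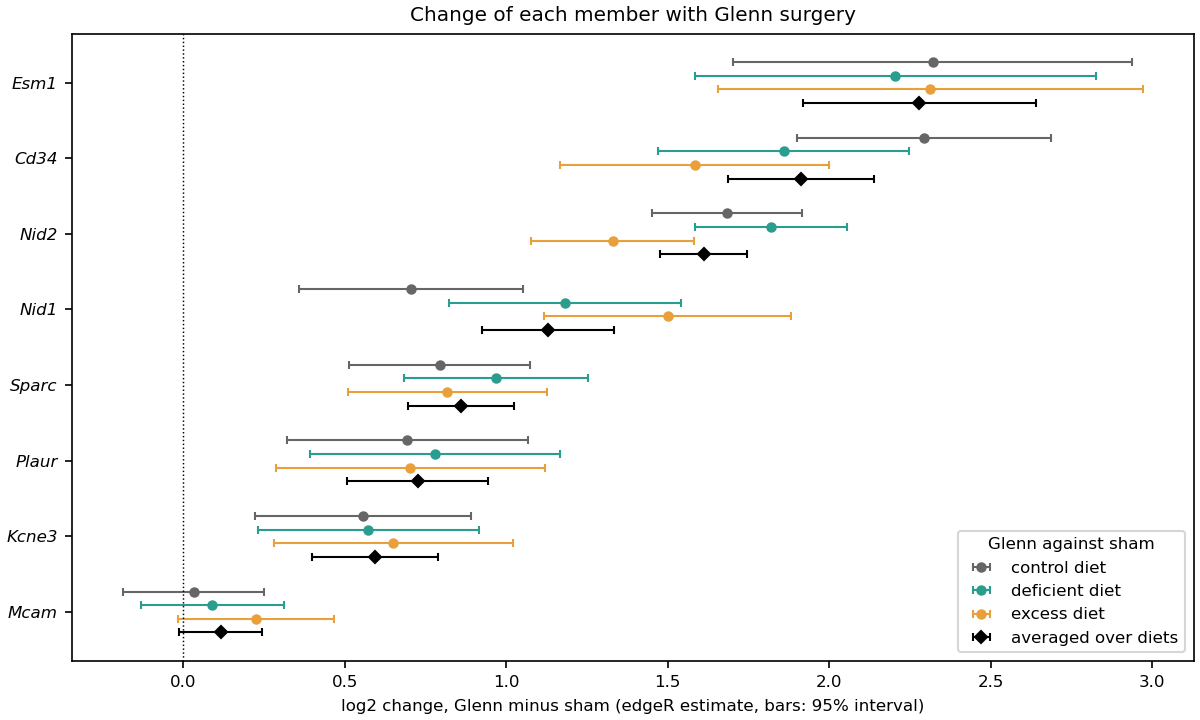
Log2 change with Glenn surgery (x axis, Glenn minus sham, edgeR estimate) of each gene on the control, deficient and excess diet and averaged over diets; bars are 95% intervals. The averaged estimates range from 0.12 for Mcam to 2.28 for Esm1, and the diets fan out most for Nid1, from 0.70 to 1.50.

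Within series A alone 7 members were again called averaged over diets, with log2 changes of 2.33 for Esm1, 1.91 for Cd34, 0.84 for Plaur, 0.68 for Kcne3, 1.25 for Nid1, 1.59 for Nid2 and 0.91 for Sparc, and 0.14 for Mcam (edgeR adjusted p 0.151). Series B had both surgeries in numbers that could be fitted on the deficient diet alone, where 6 members were called and Plaur was at 0.47 (adjusted p 0.272). On the control diet, where every library is of series A, some calls were lost when the libraries were divided by RT1-CE16 level. Among RT1-CE16-low libraries Kcne3 was at 0.80 (adjusted p 0.0969), Plaur at 0.59 (adjusted p 0.111) and Nid1 at 0.85 (adjusted p 0.0933). Among RT1-CE16-high libraries Kcne3 was at 0.26 (adjusted p 0.205) and Plaur at 0.67 (adjusted p 0.104). On the excess diet Mcam was at 0.23 over all libraries (adjusted p 0.184) and was called among RT1-CE16-low libraries, at 0.31 (adjusted p 0.0212). Of Glenn excess, that subset holds replicates 1 and 2 alone. These subsets hold fewer libraries than the groups of 5. The share of all genes called within them is not given here, and the shares above are those of the main fit.

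Diet was compared within each surgery, in 3 pairs of diets after sham and 3 after Glenn surgery. No member was called by edgeR in any of the 6 comparisons. Of all genes, the share called was 0% for the deficient against the control diet after sham, 0.241% for excess against control after sham, 0.0124% for excess against deficient after sham, 0.00618% for deficient against control after Glenn, 1.47% for excess against control after Glenn and 0% for excess against deficient after Glenn. The comparisons within a surgery share groups and are not independent. After sham surgery 0 members had an unadjusted p under 0.05 in any pair, and limma voom and DESeq2 called 0 as well. After Glenn surgery there was 1 for deficient against control, 3 for excess against control and 1 for excess against deficient, among 1598, 2254 and 837 of all genes.

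The nidogens accounted for most of these. Nid1 after Glenn surgery stood at 114 ± 42.6 CPM on the control diet, 156 ± 28.0 on the deficient diet and 164 ± 42.5 on the excess diet (SD, n = 5 each). The log2 difference was 0.67 for excess against control (SE 0.19, unadjusted p 0.00129, edgeR adjusted p 0.0652) and 0.55 for deficient against control (SE 0.18, unadjusted p 0.00451, adjusted p 0.295). The first was called by limma voom with quality weights (0.69, adjusted p 0.0131) and by DESeq2 (0.66, adjusted p 0.0204), and the second by limma voom alone of these tools (0.68, adjusted p 0.038). Without Glenn control replicate 1, edgeR called both, at 0.93 (adjusted p 0.000866) and 0.81 (adjusted p 0.00471). Without Glenn excess replicate 1 the difference for excess against control was 0.46 (adjusted p 0.502). The Glenn group on the control diet is series A only and that on the excess diet holds both series, and in series A alone the difference was 0.77 (adjusted p 0.0976). Among the sham groups Nid1 differed by -0.13 for excess against control, with a 95% interval of -0.48 to 0.22.

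Nid2 after Glenn surgery had its lowest mean on the excess diet, at 77.5 ± 9.09 CPM, beside 92.6 ± 14.9 on the control and 105 ± 19.5 on the deficient diet (SD, n = 5 each). Excess against deficient was -0.46 (SE 0.11, unadjusted p 0.000259, edgeR adjusted p 0.335), and DESeq2 put it at -0.47 with an adjusted p of 0.0498. Without Glenn deficient replicate 1, the lowest library of its group, it was -0.56 (edgeR adjusted p 0.0514). Excess against control was -0.32 (unadjusted p 0.0148, adjusted p 0.207). With the 4 libraries that stood apart left out together, a choice made after the data were seen, that difference was -0.07 (adjusted p 0.847), while excess against deficient was -0.48 (adjusted p 0.00457) and deficient against control was 0.41 (adjusted p 0.0144), both called by edgeR. Mcam made up the third gene in the excess against control comparison, at 0.25 (unadjusted p 0.0423, adjusted p 0.331). Its means after Glenn surgery were 96.9 ± 13.3 CPM on the control and 103 ± 18.5 CPM on the excess diet. The fit put Mcam lower in series B than in series A by 0.28 (SE 0.09, edgeR unadjusted p 0.00374, adjusted p 0.107). Glenn control is series A only and Glenn excess holds both series, so the 0.25 depends on that term.

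The interaction of surgery and diet, which tests whether the response to surgery differs between diets, called 0 of the 8 genes by edgeR, beside 0.00618% of all genes. At an unadjusted p under 0.05 it held 3 of the 8 (Nid1, Nid2 and Cd34) and 925 of all 16171 genes, and limma voom and DESeq2 also called 0 of the 8. Without Glenn control replicate 1 the unadjusted edgeR p of Cd34 was 0.116. That of Nid2 was 0.118 without Glenn excess replicate 1 and 0.00318 without Glenn deficient replicate 1. Unadjusted p-values of Cd34 and Nid2 were 0.139 and 0.0901 by limma voom, and 0.0356 and 0.0241 by DESeq2. In the main fit Nid1 had the smallest p (0.0117, adjusted p 0.747). Against the control diet, its response was larger by 0.80 with the excess diet (SE 0.25) and by 0.48 with the deficient diet (SE 0.24). Without Glenn control replicate 1 the edgeR adjusted p of Nid1 was 0.026, and the next lowest under any alternative was 0.144. The Nid2 response was smaller by 0.35 on the excess diet (SE 0.17, edgeR adjusted p 0.65 for this difference and 0.798 for the test over both diets). Esm1, Kcne3, Plaur and Sparc had unadjusted p-values of 0.639 to 0.953.

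Genes of the same pathways were taken from lists, by role, and these lists were chosen with earlier results of these data known. The basement membrane, into which the nidogens are built, moved mostly upwards: 10 of 12 genes were higher, 1 was lower and 1 did not pass (median log2 change 0.90). On the control, deficient and excess diet alone 7, 10 and 8 of them were higher. Of all genes 23.4% were higher, and 24.7% lower, averaged over diets. Col18a1, the source of endostatin, rose from 32.9 ± 9.12 to 357 ± 115 CPM, a log2 change of 3.44 (SE 0.16). Lama4, a chain of endothelial laminin (1.21, SE 0.06), and Lamc1, the laminin chain that nidogens bind (1.19, SE 0.07), rose as well. Agrn, a heparan sulfate proteoglycan, was the gene that fell (-0.24, SE 0.06, edgeR adjusted p 0.00306). The gene that did not pass, named after its value was seen, was Lama5 (0.11, adjusted p 0.388).

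Other tip-cell genes were higher in 15 of 19 tested, lower in 3 and not called in 1, which was Pdgfb (0.06, edgeR adjusted p 0.658, named after its value was seen). Their median log2 change was 0.49, and on the control, deficient and excess diet alone 12, 13 and 9 of them were higher. Those with the smallest adjusted p among the genes that rose were Angpt2, an antagonist of vessel stability (2.38, SE 0.09), Adm, the peptide adrenomedullin (3.13, SE 0.12), and Cxcr4, a chemokine receptor of migrating tip cells (1.83, SE 0.10). Adm rose from 10.2 ± 2.08 to 90.9 ± 22.6 CPM and Cxcr4 from 98.3 ± 22.1 to 359.7 ± 56.1 CPM (SD, n = 15 each). The genes that fell were Ednrb, an endothelin receptor of lung capillaries (-1.21, SE 0.09), Kdr, the main VEGF receptor (-0.85, SE 0.08), and Efnb2, an arterial guidance ligand (-0.70, SE 0.09).

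The VEGF ligands and receptors, through which Esm1 is known to be induced, were divided: 3 of 8 were higher, 4 lower and 1 not called (median log2 change -0.09). Vegfa fell from 1316 ± 196 to 388 ± 56.1 CPM (log2 change -1.77, SE 0.06, edgeR adjusted p 7.15e-19), and Kdr fell too. Which cells the Vegfa RNA came from, and whether these changes bear on Esm1, was not tested. Kdr and Flt4 are on this list and on that of other tip-cell genes. Flt1, a decoy receptor, was at -0.21 (SE 0.06) and Vegfc at -0.22 (SE 0.08). Pgf, a ligand of Flt1, rose by 1.85 (SE 0.12), Flt4, the receptor for Vegfc and Vegfd, by 1.00 (SE 0.07) and Vegfd by 1.23 (SE 0.31). Between diets, 2 genes of the 7 pathway lists were called by edgeR, both for excess against control after Glenn surgery. In that comparison 1.47% of all genes were called, and the 7 lists held 19, 12, 11, 8, 6, 3 and 2 tested genes. Whether 2 is more than that share would give was not tested. Vegfc, one of the 2 genes, was higher on the excess diet by 0.74 (SE 0.15, edgeR adjusted p 0.0141).

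In the urokinase system around Plaur, 5 of 11 genes were higher, 2 lower and 4 not called averaged over diets (median log2 change 0.34). On the control diet 1 was higher and 2 lower (median 0.05), on the deficient diet 5 were higher and 2 lower (median 0.61), and on the excess diet 2 were higher and 1 lower (median 0.28). The protease Plau rose by 0.80 (SE 0.11) and the collagen receptor Mrc2, a partner of Plaur at the cell surface, by 0.98 (SE 0.15). Vtn, the matrix ligand of Plaur, fell by 1.01 on the log2 scale (SE 0.14) and Plat, the tissue-type activator, by 0.69 (SE 0.10).

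The nearest relatives of the members did not all move with them. In the SPARC family, 2 of 6 tested genes were higher and 4 not called. Sparcl1 rose by 2.52 (SE 0.13), from 92.0 ± 22.2 to 538 ± 169 CPM, and Smoc1 by 1.14 (SE 0.33), while Fstl1 was at 0.05 (edgeR adjusted p 0.616), Smoc2 at -0.03, Spock2 at 0.22 and Spock3 at 0.63. Spock2, the other gene called between diets, was after Glenn surgery lower with the excess diet than with the control diet (log2 difference -0.84, SE 0.19, edgeR adjusted p 0.0233). Of all genes, 1.47% were called in that comparison. Of the KCNE subunits and channel partners of Kcne3, 1 of 3 tested genes was higher (Kcne4 at 1.33) and 2 were lower (Kcnq1 and Kcne2, both at -0.58). In the CD34 family, Podxl, the podocalyxin relative of Cd34, fell from 531 ± 58.0 to 319 ± 43.2 CPM (log2 change -0.74, SE 0.06, edgeR adjusted p 3.45e-11). Podxl2, the other gene of that list, was at 0.05 (adjusted p 0.776).

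**Figure D3:**
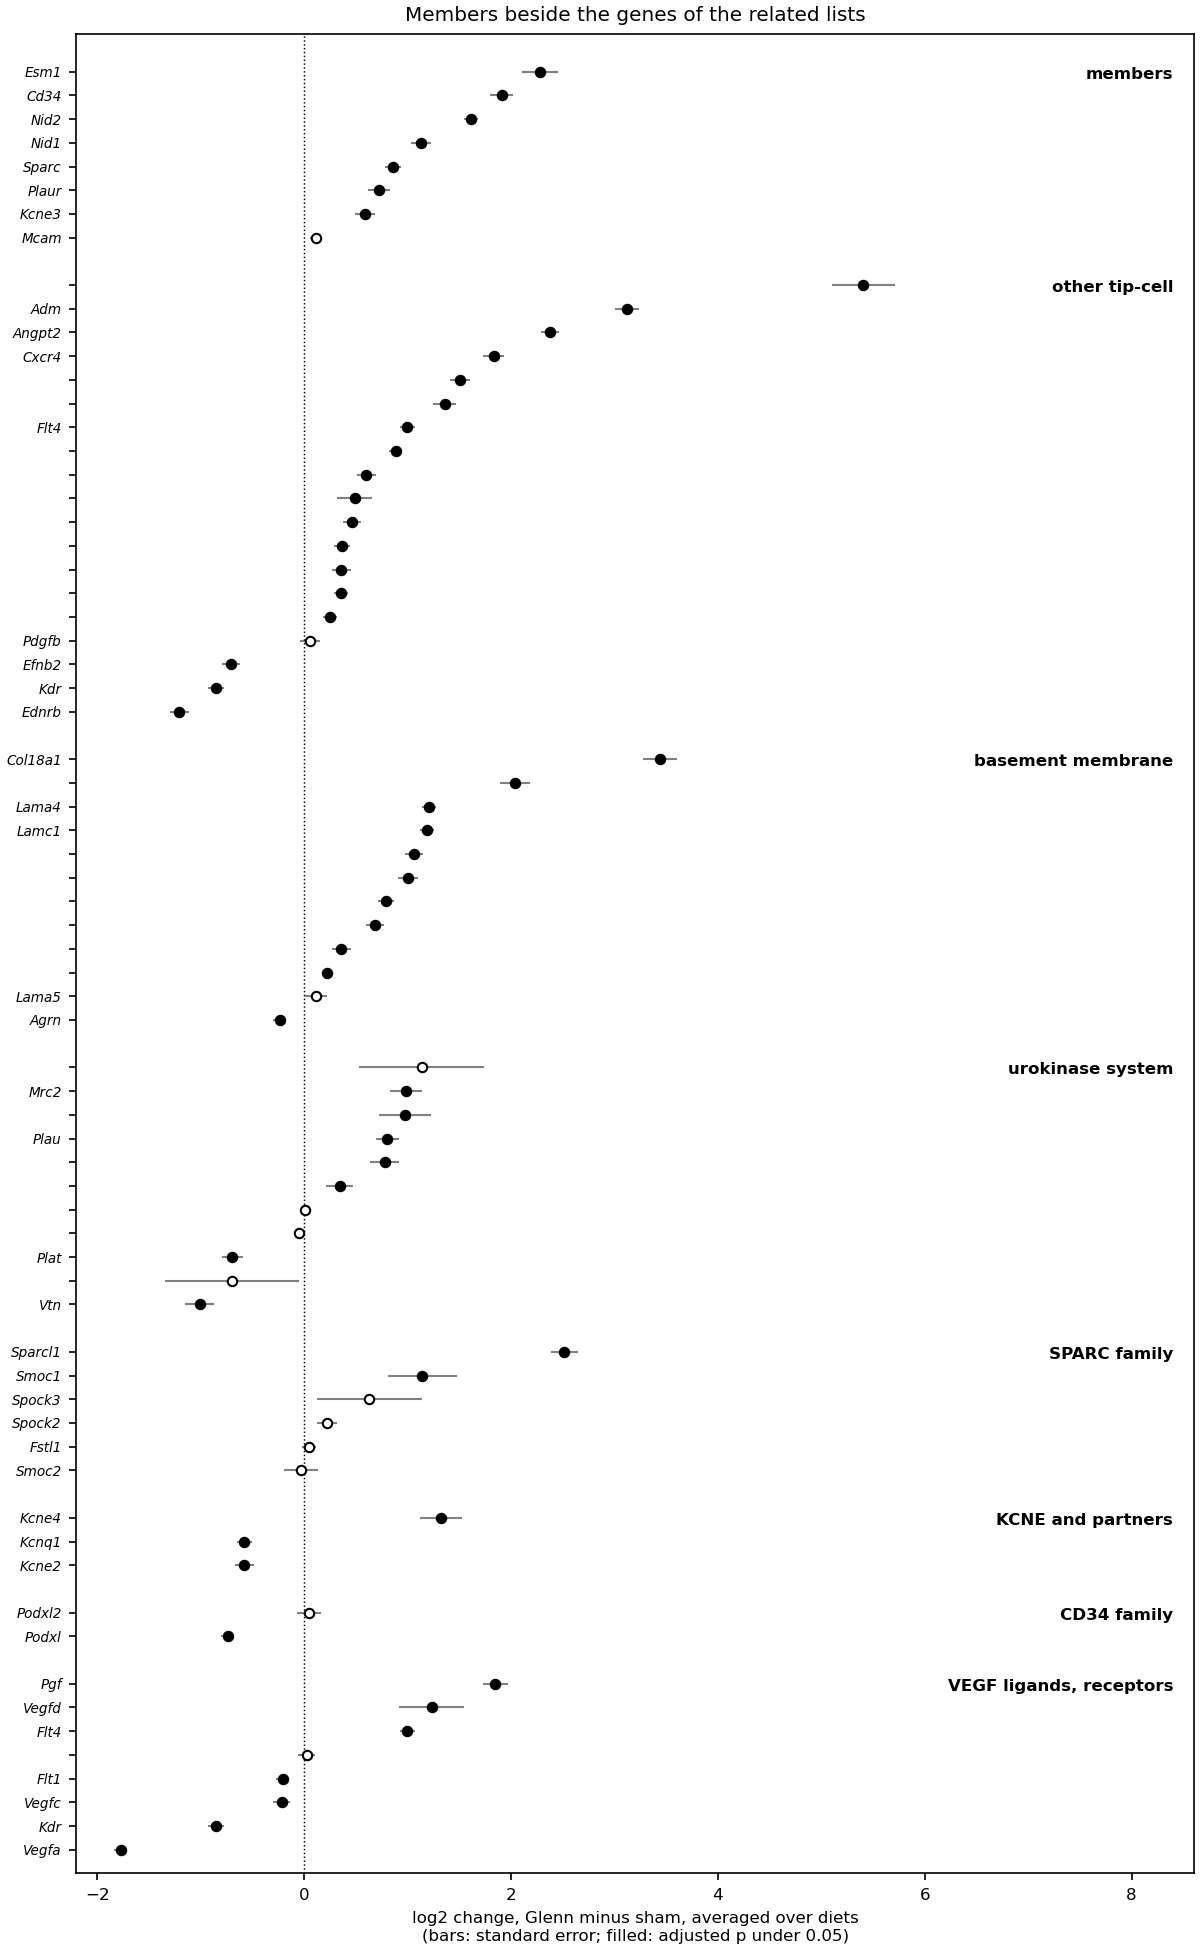
Log2 change with Glenn surgery averaged over diets (x axis; bars, standard error) of the 8 genes and of the tested genes of 7 related lists, 1 gene per line, labelled where the text names the gene; filled points had an adjusted p under 0.05. Basement membrane and other tip-cell genes lie mostly right of 0, and Vegfa, at -1.77, lies farthest left.

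The 8 genes did not vary as one block within the groups. After group means and series were taken out of log2(CPM + 1), Pearson's r over the 30 libraries was highest for Nid2 and Cd34 (0.59) and was 0.50 for Kcne3 and Nid1, Nid1 and Sparc, and Cd34 and Sparc. Esm1 went against the matrix genes Sparc (-0.41) and Nid2 (-0.29) and against Mcam (-0.32), and with Kcne3 (0.35). The nidogens had an r of 0.10 with each other. As measured, with the surgery difference left in, Spearman's rho was 0.91 for Nid2 and Cd34 and 0.06 for Esm1 and Mcam. These are descriptions over libraries that share preparation, depth and the make-up of the sort.

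**Figure D4:**
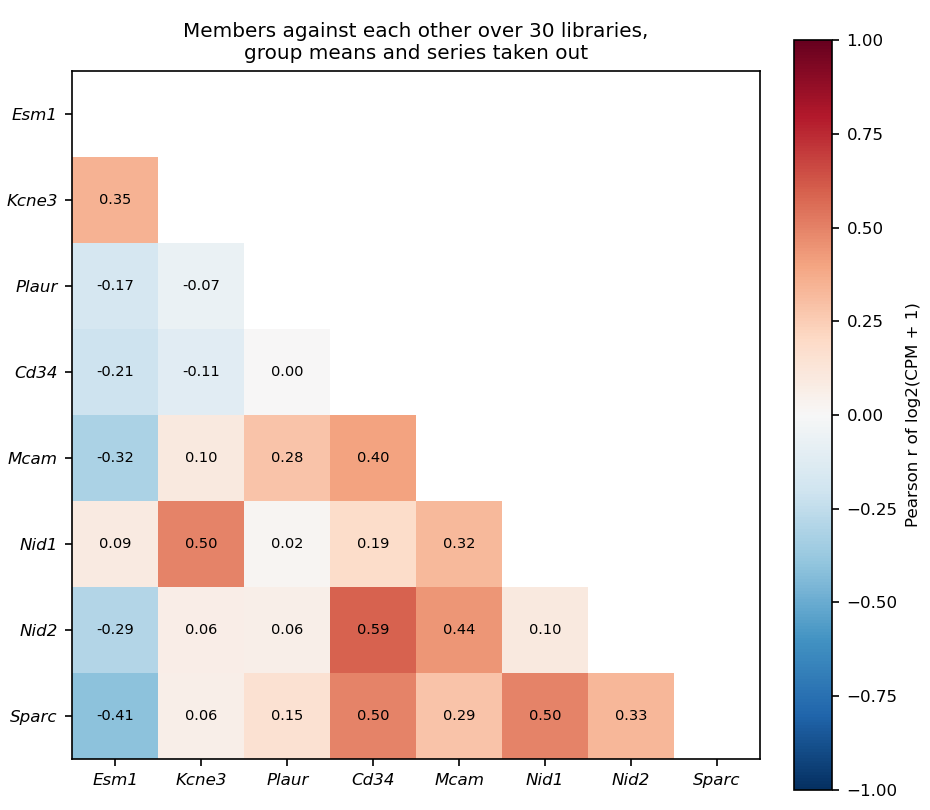
Pearson's r of log2(CPM + 1) between each pair of the 8 genes over the 30 libraries, after group means and library series were taken out (colour scale from -1 to 1). Values range from -0.41 for Esm1 and Sparc to 0.59 for Nid2 and Cd34.

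In a pool of 12720 genes that averaged 1 CPM or more, those most like each member were listed by the same measures over the 30 libraries. By r within groups they were Fam20a (0.81) and Pgm2l1 (0.79) for Esm1, Zfp35 (0.74) and Adcy6 (0.71) for Kcne3, and Pdlim1 (0.80) and Fxyd5 (0.78) for Plaur. They were Anxa6 (0.75) and Prdx4 (0.73) for Cd34, and Ddx25 (0.75) and Fli1 (0.74) for Mcam. For the matrix genes they were Itga5 (0.82) and Col5a2 (0.79) for Nid1, Gpr176 (0.78) and Slc35b4 (0.77) for Nid2, and Tspan6 (0.90) and Pea15 (0.87) for Sparc. By rho as measured, which includes the surgery difference, the first of each was Il6st for Esm1 (0.91), Tmem255b for Kcne3 (0.87), Fxyd5 for Plaur (0.93), Fzd9 for Cd34 (0.92), Tomm20 for Mcam (0.77), Fgfr1 with Kcnn4 for Nid1 (both 0.92), Cd34 for Nid2 (0.91) and Dbn1 for Sparc (0.95). The second was Lepr for Esm1 (0.90), Gprc5b for Kcne3 (0.87), Cks1b for Plaur (0.90), Micall2 for Cd34 (0.91), U2af1 for Mcam (0.75), Slc35b4 for Nid2 (0.91) and Mpzl1 for Sparc (0.94). Fxyd5 for Plaur and Slc35b4 for Nid2 came up by both measures, which use the same 30 libraries. Every gene named here was picked as among the highest of 12720 values, and such a search can reach high values by itself. No p is given, and likeness beyond that was not tested.

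Markers of other cell types moved with surgery in the same libraries. Of 11 mural (pericyte and smooth muscle) markers, 11 were higher after Glenn surgery averaged over diets (edgeR), and their summed level was 188 to 389 CPM in sham and 561 to 1880.1 CPM in Glenn libraries, with no overlap. Of 10 fibroblast markers 8 were higher averaged over diets, with a median log2 change of 0.66, which was 0.23 on the control diet. Their sums overlapped, at 1436 to 3415 CPM in sham and 1982 to 4888 CPM in Glenn libraries. All 6 lymphatic endothelial markers were higher (1034 to 1918 against 2348 to 4959.5 CPM summed), as were 8 of 8 proliferation markers (16.6 to 44.9 against 31.9 to 90.8 CPM summed). These counts are over diets: on the control, deficient and excess diet alone 1, 6 and 3 proliferation markers, 0, 6 and 2 fibroblast markers, 5, 5 and 4 lymphatic markers and 8, 11 and 11 mural markers were higher. No marker of the mural or fibroblast list was at 0 in any library. Sums are weighted towards the genes with most counts. In the lymphatic sum these were Ccl21 and Lyve1, with medians of 1120 and 739 CPM, while Prox1 had a median of 7.27 CPM. In the fibroblast sum it was Col3a1, with a median of 1700 CPM.

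Summed endothelial markers were 10092 to 12621 CPM in sham and 7132 to 10702 CPM in Glenn libraries, with 3 of 10 higher and 6 lower averaged over diets, as are the counts that follow. Epithelial sums were 36609 to 62342 and 26676 to 58403 CPM, with 2 of 10 higher and 4 lower. Leukocyte sums, most of them Lyz2, which alveolar epithelium also expresses, were 13032 to 24466 and 8078 to 18885 CPM, with 1 of 7 tested higher and 2 lower. Of 5 mesothelial markers 0 were called, and of 5 platelet and erythroid markers 1 was higher and 4 lower. The pan-leukocyte gene Ptprc had a median of 2.42 CPM, Cd3e was at 0 in 13 libraries and S100a8 in 12. With mural and fibroblast scores as covariates, 5 of the 8 genes were called averaged over diets, namely Esm1 (2.63), Cd34 (1.93), Nid2 (1.51), Nid1 (1.29) and Sparc (1.08). Kcne3 (0.66, adjusted p 0.0583) and Plaur (0.47, adjusted p 0.254) were then not called. Without the scores Kcne3 was at 0.59 and Plaur at 0.73. The scores were means of log2(CPM + 1) over each list, and whether they overlap between the surgeries is not given here. Mural sums did not overlap and 11 of 11 mural markers rose, so mural content goes with the operation and this fit cannot separate them. Within groups, the r of the members with the marker scores ranged from -0.26 (Sparc) to 0.20 (Plaur) for mural and from -0.25 (Kcne3) to 0.24 (Nid2) for fibroblast markers. It was larger in size for several other lists. For proliferation markers it was 0.51 for Nid2, 0.50 for Sparc, 0.49 for Nid1 and -0.37 for Esm1, and for endothelial markers it was above 0 for all 8 genes, up to 0.59 for Nid1. For epithelial markers it was below 0 for all 8, down to -0.49 for Sparc and -0.48 for Nid1. It was 0.50 for Esm1 with lymphatic markers, and with mesothelial markers 0.55 for Esm1, -0.51 for Nid1, -0.50 for Sparc and -0.61 for Mcam. The part of the lymphatic, proliferation, endothelial, epithelial, mesothelial and leukocyte markers in the changes of the 8 genes was not tested. That of the mural and fibroblast markers is not settled by the fit with their scores.

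**Figure D5:**
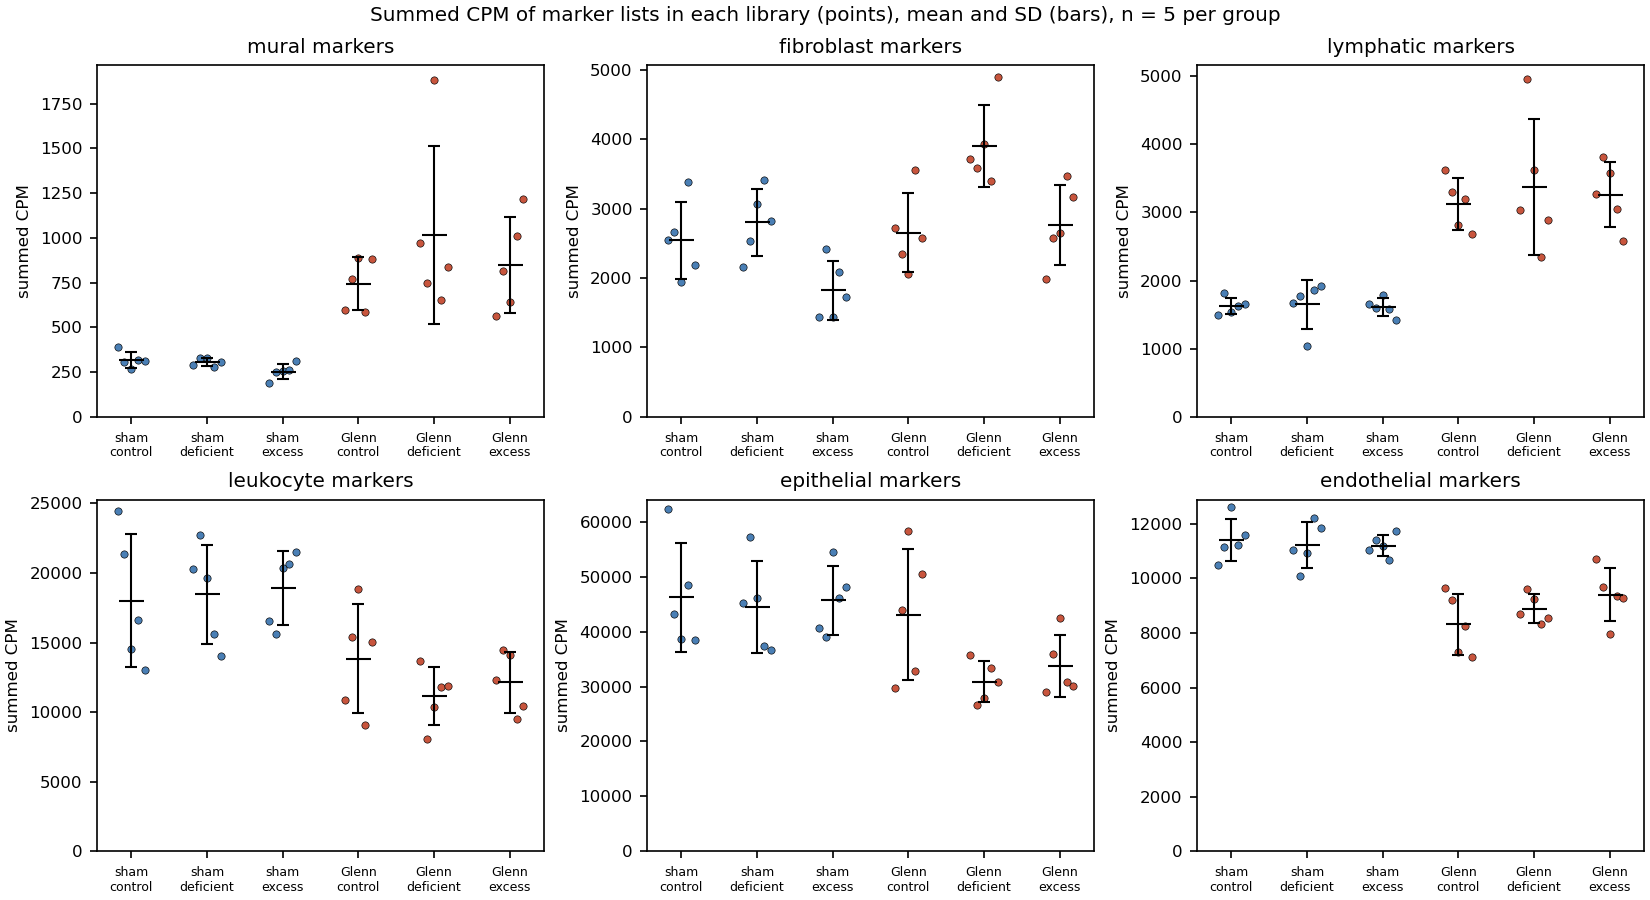
Summed CPM of 6 marker lists in each library (points; blue, sham; red, Glenn), with mean and SD per group of 5; each panel has its own linear axis from 0. Mural and lymphatic sums of all Glenn libraries lie above those of all sham libraries, and endothelial, epithelial and leukocyte sums are lower on average.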

How the data were processed

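Bulk RNA-seq of CD31-positive rat lung cells was used, with 30 libraries in 6 groups of 5. Per the labels' protocols, RNA was purified on PureLink columns and SMART-Seq v4 was the library kit. The authors deposited estimated counts per gene, and 13.6% of these values were not whole. The submitters' processing notes name FastQC, Trim Galore, Picard, STAR, Salmon and the build mRatBN7.2 (rn7), with no role or order; their versions, the annotation and the handling of strand are not given in the sources used here. All sample columns were used.

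Estimated counts were rounded. The filter was edgeR's filterByExpr (version 4.0.16) by group, with at least 10 counts in enough libraries and 15 in all, and 16171 genes passed. TMM factors lay between 0.94 and 1.06. A single quasi-likelihood model in R 4.3.3 held the 6 groups and the library series, with 23 residual degrees of freedom, and p-values were adjusted over all genes (Benjamini-Hochberg, threshold 0.05). The standard error is the size of the log2 change over the root of its F statistic. Within groups, the 60 pairs of libraries differed by 20.5 to 122 in chi-square per degree of freedom, with Spearman correlations of 0.98 to 0.993, so no pair agreed within sampling noise as copies of a library would. This does not show that libraries are separate animals. The steps were tested on simulated data.

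The members and lists were chosen with earlier results of these data known. Named are the 8 members, per member the 2 most like genes by each measure, and per pathway list up to 3 genes raised and 3 lowered with the smallest adjusted p averaged over diets (any gene of a list of at most 8). Some genes of these lists are not reported here and are left out of the counts. Marker sums add the CPM of a list, and marker scores average its log2(CPM + 1). Alternatives were limma 3.58.1 (voom), DESeq2 1.42.0, its size factors, no filter, no series term, RT1-CE16 level or sex (Ddx3y above 10 CPM) as terms, single series or RT1-CE16 levels, marker scores, a replicate block, only the groups compared, and leaving out each library. Leaving out all libraries that stand apart was chosen after seeing the data. Ddx3y was above 10 CPM in 13 libraries and not above it in 17, and how these fall over the groups is not given here. Promoters came from RefSeq (GRCr8). Figures were drawn with matplotlib 3.10.9.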

Additional observations from a re-analysis of the deposited data

Results flagged for a closer look

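In each of the 48 sets of 5 libraries (8 genes in 6 groups), the gap between the most extreme library and the nearest of the other 4 was set against the range of the set. In 6 sets the gap was larger than the 95% critical value for 5 samples, where chance gives about 2.4. For Nid1, Glenn control replicate 1 had 190.3 CPM beside 90.0 to 99.7 CPM in the other 4 libraries, a gap of 0.903 of the range. The same library was the highest of its group for Cd34 (19.8 beside 12.1 to 14.1 CPM, 0.7453 of the range) and for Sparc (4599 beside 2408 to 3006 CPM, 0.7268 of the range). Glenn excess replicate 1 had 238 CPM of Nid1 beside 136 to 154 CPM (0.8204 of the range). Nid2 was lowest in sham control replicate 5 (24.2 beside 29.4 to 30.6 CPM, 0.8206 of the range) and in Glenn deficient replicate 1 (71.7 beside 107 to 119 CPM, 0.7374 of the range).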

How the results depend on the processing

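For the 7 genes called higher after Glenn surgery, all 798 values under the alternatives were above 0, and 774 were past the threshold. The other 24 were of Kcne3, Plaur and Nid1. On the control, deficient and excess diet Kcne3 fell short in 4 of 24, 4 of 25 and 3 of 23 alternatives. Plaur did so in 3, 3 and 4 of them, and Nid1 in 1 on the control diet. Averaged over diets Kcne3 and Plaur each fell short in 1 of 42. The alternatives refit the same libraries and are not independent. The number of members called averaged over diets lay between 5 (mural and fibroblast scores as covariates) and 8, and with each library left out in turn between 7 and 8. On the control diet it was 4 among RT1-CE16-low libraries, with Kcne3 (adjusted p 0.0969), Plaur (0.111) and Nid1 (0.0933) lost, and 6 to 7 with each library left out. On the deficient and excess diets it was 5 to 7 (5 with the marker scores), and Mcam was called on the excess diet among RT1-CE16-low libraries. For deficient against control diet after Glenn surgery, 1 member (Nid1) was called by limma voom and 2 (Nid1 and Nid2) without the 4 libraries that stand apart, and with each library left out 0 to 1. For excess against control after Glenn surgery, 1 member (Nid1) was called by limma voom, by DESeq2 and without the libraries that stand apart, and 0 to 1 with each library left out. For excess against deficient after Glenn surgery, 1 member (Nid2) was called by DESeq2 and without the libraries that stand apart. The interaction called 0 to 1 members with each library left out. The cause of these changes was not tested, and the share of all genes called under each alternative is not given here. No direction of a called value reversed.

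Pairing by replicate number was not clear. Same-numbered libraries of different groups had residual correlations of -0.246 to 0.251 (median 0.0281, 15 of 75 over 0.1). The median was -0.0113 for libraries of different numbers, and 10 of 30 libraries correlated best with their own number. These values do not exclude pairing. With the replicate block 7 members were called averaged over diets and on the control and deficient diets, and 6 on the excess diet, where Plaur had 0.58 (adjusted p 0.0528). Series B and RT1-CE16-high libraries could not be fitted alone where a group had fewer than 2 of them. The lowest count of a member was 108, and the effect of depth was not tested by thinning the libraries.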
